A study of Mus musculus with 3 samples.

Results

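Homeostatic microglia with deep counts are cells in which several microglia genes and at most 1 activation gene were detected, at a depth that allows them to be read cell by cell. They were taken from 3 droplet scRNA-seq libraries of live cells sorted from the brain around the tumor injection site of GBM-bearing mice. Members were chosen by measured values of these cells. Each had 2000 or more UMIs (unique molecular identifiers, that is, distinct captured RNA molecules), 200 or more genes detected, and no more than 20% of UMIs from mitochondrial genes. It also had at least 1 UMI of 3 or more of the 7 microglia genes *P2ry12*, *Tmem119*, *Sall1*, *Siglech*, *Gpr34*, *Olfml3* and *P2ry13*, fewer than 2 of the 6 activation genes *Cxcl13*, *Ch25h*, *Cst7*, *Lpl*, *Spp1* and *Itgax*, and fewer than 3 of the 5 cell-cycle genes *Mki67*, *Top2a*, *Birc5*, *Pclaf* and *Hist1h1b*. A barcode present in more than 1 library was kept only where its UMIs were at least 5 times those of the copy. Of 6947 barcodes, 5528 passed the limits on genes and mitochondrial UMIs, 1259 were dropped as copies, 3019 of the rest were deep, and 1551 were homeostatic microglia (22.33% of all barcodes and 51.37% of the deep ones). The measured values of these 18 genes chose the cells, so their levels are a description and were not tested.

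All libraries came from female wild-type C57BL/6 mice, 6 to 8 weeks old, with BTICs (brain tumor-initiating cells, from Nf1- and Trp53-deficient tumors of NPcis mice) implanted in the right striatum. Niacin-treated mice received 100 mg/kg daily by intraperitoneal injection from day 7 and control mice received saline, and the tissue was taken 4 weeks after implantation. Each library is a pool, of 5 mice by the methods and of 4 brain tissues by the labels, so differences between mice are not visible. One saline library (vehicle control replicate 2) and 2 niacin libraries (niacin replicates 1 and 2) were analyzed. Since only 1 vehicle library was analyzed, niacin and vehicle were compared by the size of the difference, with no p-value.

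Microglia are the resident macrophages of the brain. They arise early in development, renew themselves locally, and hold a homeostatic state under signals of the tissue such as CSF1 receptor ligands and TGF-beta. That state is marked by purinergic receptors such as *P2ry12* that sense nucleotides of injured cells, by *Cx3cr1*, the receptor of neuronal fractalkine, and by the transcription factor *Sall1*. In tumors and degenerating tissue microglia can lose these markers and gain lipid-handling and antigen-presentation genes, while monocytes enter from the blood and become macrophages that share many genes with microglia.

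The vehicle library gave 254 members, niacin replicate 1 gave 656 and niacin replicate 2 gave 641. Among the deep cells they made up 31.75% with vehicle (exact binomial 95% confidence interval 28.5% to 35.1%). The shares with niacin were 61.25% (58.3% to 64.2%) for replicate 1 and 55.84% (52.9% to 58.7%) for replicate 2. All intervals given for a single library cover counting error only. The median member had 7393 UMIs and 2827 genes in the vehicle library, 6046.5 UMIs and 2448 genes in niacin replicate 1, and 6400 UMIs and 2510 genes in niacin replicate 2. Median mitochondrial shares were 2.46%, 1.57% and 1.81% in the same order. A barcode shared with another library was carried by 34, 213 and 59 members (306 in all), so the comparisons below were repeated without shared barcodes.

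All 7 microglia genes were detected in 68.5% of the members of the vehicle library, 65.1% of those of niacin replicate 1 and 65.7% of those of niacin replicate 2. At equal depth, with each cell thinned to 2000 UMIs, *P2ry12* was present in 89.4%, 95.4% and 95% of members, *Tmem119* in 84.3%, 93.1% and 92.8%, and *Gpr34* in 78.7%, 92.5% and 91.3%. *Sall1* ran the other way, in 58.3%, 41.8% and 40.3% of members. At full depth, which differed between the libraries, none of the activation genes was detected in 72.4% of the vehicle members. The shares were 89.3% of the niacin replicate 1 members and 86.6% of the niacin replicate 2 members. These genes are part of the rule, and no test was made of their shares.

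The label was checked against microglia genes that the rule does not read. *Cx3cr1*, the fractalkine receptor of microglia and of some monocytes, was detected at 2000 UMIs per cell in 94.9%, 99.1% and 98.4% of members. T cells of the same libraries (deep cells with 2 or more of *Cd3d*, *Cd3e* and *Cd3g* and at most 1 microglia gene) were taken as a contrast. Their shares were 9.92%, 6.33% and 5.83%, at median depths of 6218, 7134 and 6744 UMIs per cell before thinning. *Csf1r*, the receptor for colony-stimulating factor 1, was detected in 96.9%, 99.4% and 97.7% of members against 3.05%, 5.06% and 5.83% of T cells. Nearer cell types, defined below, shared these genes more. *Cx3cr1* was detected in 28.1%, 53.1% and 53.3% of infiltrating monocytes and macrophages, and *Csf1r* in 64.4%, 63.3% and 58.3%. Activated microglia had *Cx3cr1* in 89.2%, 87.5% and 100% of cells.

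The members just inside the limit of the rule differed from the rest. The 44 members with exactly 3 microglia genes, of which 20 were in the vehicle library and 8 and 16 in niacin replicates 1 and 2, had median *Cx3cr1* levels of 163, 935 and 189 CPM (UMIs per 1000000 UMIs of the cell or class), against 5139, 5540 and 5344 CPM in members with all 7 genes. The 20 cells of the vehicle library held 0.694% of the *Cx3cr1* UMIs of its members, but 89.5% of those of *Arg1*, 83.0% of *Cxcl9*, 78.7% of *Ccr2*, 66.1% of *Plac8* and 49.0% of *Lyz2*. *Arg1* marks alternatively activated macrophages, and *Ccr2*, *Plac8* and *Lyz2* mark monocytes. For these 44 cells as a group the data go against the label. The comparisons with activated and infiltrating cells below are given with them only. Other results that rest on them are mostly given without them too, over the 234, 648 and 625 members with at least 4 microglia genes. Members with exactly 4 genes remain among these, with median *Cx3cr1* of 1750.5, 3098 and 1087 CPM (16, 12 and 7 cells). The 8 cells of niacin replicate 1 were shallow, with a median of 2469 UMIs against 9497 and 7292. The part of missed detection was not tested.

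The cells on either side of the limits of the rule are given as a description. Members with fewer than 2500 UMIs had 5212 CPM of *Cx3cr1*, and the cells just outside, with 1500 or more but fewer than 2000 UMIs, had 4707 CPM. Members with 1 activation gene had 4312 CPM of *Cx3cr1* and 2495 CPM of *Apoe*, against 2965 and 4908 CPM in the cells just outside, with 2. The 99 deep cells with only 2 microglia genes had 229 CPM of *Cx3cr1*, and the 44 members with 3 had 412 CPM.

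**Figure D1:**
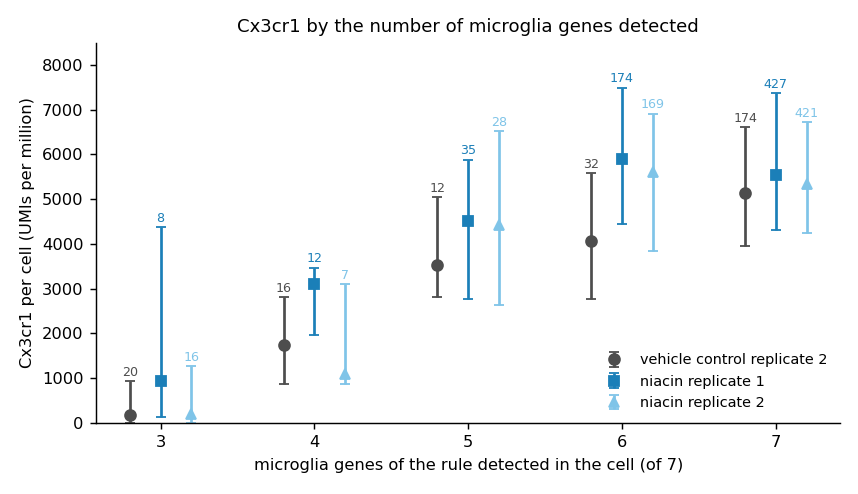
*Cx3cr1* per cell (CPM, linear axis) against the number of the 7 microglia genes detected in the member, for each library. Points are medians, bars run from the lower to the upper quartile, and the small numbers count cells. Members with 3 genes lie at medians of 163 to 935 CPM, and members with 7 genes at 5139 to 5540 CPM.

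RNA of other cell types was also present in the members. The 9 monocyte markers summed to 1251 CPM in the vehicle library against 68.6 and 235 CPM in niacin replicates 1 and 2, and all 9 had a UMI in every library. With at least 4 microglia genes these sums were 476, 39.8 and 63.7 CPM. The 10 neutrophil markers summed to 449, 559 and 8195 CPM, and with at least 4 microglia genes to 468, 562 and 1985 CPM. The 6 erythroid markers, which include the globins, summed to 490, 2388 and 3769 CPM, and the 8 choroid plexus markers to 50.6, 1325 and 1579 CPM. Of the erythroid markers 2, 0 and 1 were at 0, and of the choroid plexus markers 3, 0 and 0. With at least 4 microglia genes the erythroid sums were 539, 2406 and 3908 CPM, and the choroid plexus sums 52.3, 1174 and 451 CPM. At 2000 UMIs per cell *Hbb-bs*, a beta globin gene, was present in 2.76%, 60.7% and 44.9% of members and in 3.05%, 45.6% and 31.1% of T cells, and *Ttr*, a choroid plexus transport protein, in 11%, 45.7% and 34.6% of members and 6.87%, 43.0% and 22.3% of T cells. Beside these shares, the levels of *Hbb-bs* were 226, 1112 and 2086 CPM in members and 10.8, 326 and 196 CPM in T cells, and those of *Ttr* were 44.2, 1217 and 1386 CPM in members and 38.8, 210.1 and 1707 CPM in T cells. Without shared barcodes *Hbb-bs* measured 300.1, 1828 and 315 CPM in members. The part of this RNA in the results below was not tested.

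Levels of the microglia genes outside the rule were compared with 255 infiltrating monocytes and macrophages of the same libraries (146, 49 and 60 cells). These had at least 3 of the 7 genes *Ccr2*, *Ly6c2*, *Plac8*, *S100a4*, *F13a1*, *Chil3* and *Ms4a4c*, a UMI of *Lyz2*, at most 1 microglia gene and fewer than 2 of 6 lymphoid genes, and all genes that formed either class were left out of the calls. Summed counts of the 2 classes in each of the 3 libraries entered edgeR's quasi-likelihood test, blocked by library, with Benjamini-Hochberg adjustment. Because the classes were cut from the same cells by related genes, the tests measure how far they lie apart and are not independent evidence that they differ. Of 10157 genes tested, 1996 (19.7%) were higher and 2145 (21.1%) lower in homeostatic microglia at an adjusted p under 0.05. Of 40 microglia identity genes, 36 were higher, 1 was lower and 3 (*Irf8*, *Aif1* and *Abi3*) did not pass, with a median log2 fold change of 4.50 against 0.11 over all genes.

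*Cx3cr1* measured 4423 CPM in the vehicle library, 5700 CPM in niacin replicate 1 and 5105 CPM in niacin replicate 2, against 180, 370 and 427 CPM in infiltrating cells (log2 fold change 3.61 ± 0.29 (SE, n = 3 libraries), adjusted p = 0.00079 by edgeR). *Sparc*, a secreted matrix protein that microglia make in the brain, measured 2253, 2435 and 2510 CPM against 8.15, 5.21 and 11.4 CPM (7.76 ± 0.31, adjusted p = 0.00043 by edgeR). In both of these genes the 3 homeostatic values lay far above the 3 infiltrating values. *Fcrls*, a microglia scavenger-like receptor, measured 892, 1360 and 1450 CPM against 4.76, 8.69 and 5.68 CPM. *C1qa*, a chain of the first complement component, measured 5564, 8688 and 8334 CPM against 531, 24.3 and 148 CPM.

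*Csf1r*, the receptor through which microglia and macrophages are kept alive, differed less. It measured 2981, 3118 and 2888 CPM in homeostatic microglia and 544, 544 and 613 CPM in infiltrating cells (log2 fold change 1.97 ± 0.20, n = 3 libraries, adjusted p = 0.0012 by edgeR). *Spi1*, which encodes the myeloid factor PU.1, was the identity gene that was lower, at 289, 388 and 369 CPM against 459, 742 and 737 CPM (-1.30 ± 0.21, adjusted p = 0.0039 by edgeR). The glutamate transporter gene *Slc1a3* had 2367 UMIs in homeostatic microglia and 0 in infiltrating cells, at least 221-fold higher taking a floor of 3 counts over the infiltrating group. By the same floor *Sall3*, a relative of *Sall1*, was at least 144-fold, *Sgce* at least 103-fold and *Upk1b* at least 69.4-fold higher. *Crybb1*, a crystallin gene that marks microglia, had 2663 UMIs against 3, a ratio of 249 (95% counting interval 85.0 to 1206).

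**Figure D2:**
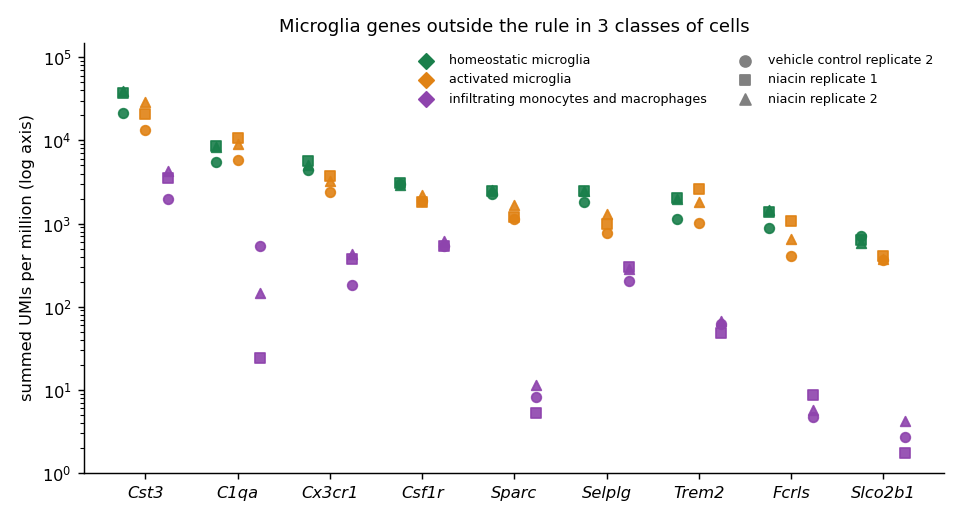
Levels of 9 microglia genes that the rule does not read (CPM of summed UMIs, log axis) in homeostatic microglia, activated microglia and infiltrating monocytes and macrophages. Marker shapes are the 3 libraries. The homeostatic values lie above the infiltrating values in each gene, from 2888 to 3118 against 544 to 613 CPM for *Csf1r* to 2253 to 2510 against 5.21 to 11.4 CPM for *Sparc*.

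Transcription factors split between the classes. Of 27 myeloid factors, 13 were higher and 9 lower in homeostatic microglia than in infiltrating cells (median log2 fold change 1.14). *Bhlhe41* measured 214, 253 and 231 CPM against 7.47, 0 and 0 CPM. *Maf* measured 779, 762 and 726 CPM against 216, 12.2 and 49.7 CPM, and *Zfhx3* measured 896, 929 and 832 CPM against 60.5, 67.8 and 55.4 CPM. Among those lower, *Nr4a1* measured 8.62, 10.4 and 9.74 CPM against 101, 485 and 422 CPM, and *Cebpb*, a factor of monocyte differentiation, measured 515, 394 and 353 CPM against 2100, 2374 and 2159 CPM. In the TGF-beta pathway 8 of 18 genes tested were higher and 4 lower, against 19.7% higher and 21.1% lower of all genes. Among those higher were the receptor chains *Tgfbr1* (1083, 1071 and 1053 CPM against 229, 93.9 and 90.8 CPM) and *Tgfbr2* (351, 302 and 284 CPM against 63.9, 73.0 and 58.2 CPM), and the induced inhibitor *Smad7* (380, 515 and 386 CPM against 76.8, 22.6 and 12.8 CPM).

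Of 40 lysosome genes, 20 were higher in homeostatic microglia and 4 lower (median 0.71), with the protease genes *Ctsd* at 5364, 6971 and 6899 CPM against 689, 247 and 196 CPM and *Lgmn* at 2984, 2898 and 2916 CPM against 779, 106 and 129 CPM. Of 47 nuclear oxidative phosphorylation genes 37 were lower and 0 higher (median -1.09). Of 18 glycolysis genes 12 were lower and 1 higher (median -1.66). *Pkm*, pyruvate kinase, measured 227, 133 and 152 CPM against 921, 521 and 429 CPM. Of 40 interferon response genes 31 were lower and 0 higher (median -2.10), and the count was 9 of 38 in the fit without the library block, 21 of 36 without the vehicle library (with 1 higher) and 20 of 40 without niacin replicate 2. Without niacin replicate 2 the genes called fell to 818 higher and 973 lower, the identity genes to 31 higher of 40 and the oxidative phosphorylation genes to 15 lower of 47. Without shared barcodes 23 of the oxidative phosphorylation genes were lower. The infiltrating class held neutrophil RNA, with summed neutrophil markers of 17459, 154280 and 121890 CPM, and the genes most lowered in homeostatic microglia included *S100a8*, *S100a9*, *Ngp* and *Camp*. Removing cells with markers of other types left 80, 12 and 23 infiltrating cells, or 138, 29 and 45 in a narrower version. *Ngp* and *S100a9* were then higher in homeostatic microglia, as were *S100a8* and *Lcn2* in the narrower version. Of these only *S100a9* passed, in the narrower version (adjusted p = 0.043 by edgeR). Neither version was among the settings given below that moved the total counts of this comparison. Neither removed neutrophils alone, and the part of neutrophils in the other calls was not tested separately.

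Activated microglia of the same libraries had the same microglia genes and depth limit but at least 2 of the 6 activation genes. There were 37 in the vehicle library and 8 and 26 in niacin replicates 1 and 2. Homeostatic cells were 87.3% of both classes together in the vehicle library (95% confidence interval 82.9% to 90.9%), 98.8% (97.6% to 99.5%) in niacin replicate 1 and 96.1% (94.3% to 97.4%) in niacin replicate 2. Activated cells were deeper, with median UMIs of 11049, 7487 and 8625. With the genes of the rule read after thinning, the shares were 97.0%, 99.2% and 98.6%.

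Of 9372 genes tested, 313 (3.34%) were higher and 422 (4.5%) lower in homeostatic than in activated microglia. Genes that vary in step with the 6 activation genes across cells are not independent of the split. Of 40 identity genes 21 were higher and 0 lower (median log2 fold change 0.56 against 0.04 over all genes), and of 26 genes of the disease-associated microglia state 23 were lower and 0 higher (median -1.42). These counts depend on few activated cells. Without shared barcodes, which left 20, 3 and 14 activated cells, 12 genes were higher and 36 lower in all, identity genes passed in 0 of 40 (median 0.65), and disease-associated genes were lower in 8 of 24 (median -1.10). In the fit without the library block 10 were higher and 36 lower in all, with 2 identity genes higher and 5 disease-associated genes of 24 lower. Without the vehicle library 72 were higher and 105 lower (12 identity genes higher), and without niacin replicate 2 the counts were 74 and 127 (11 identity genes higher).

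*Apoe*, the lipid carrier that rises in disease-associated microglia, measured 1384, 1273 and 2001 CPM in homeostatic cells of the vehicle library, niacin replicate 1 and niacin replicate 2, against 4361, 36290 and 5087 CPM in activated cells (log2 fold change -2.56 ± 0.19, n = 3 libraries, adjusted p = 2.9e-37 by edgeR). *Axl*, a receptor for dying cells, measured 92.1, 8.80 and 14.4 CPM against 369, 219 and 149 CPM (-2.95 ± 0.26, adjusted p = 1.2e-27 by edgeR). Both genes were lower in homeostatic cells in 3 of 3 libraries, and both were still called without shared barcodes. With 1 library left out the log2 fold change ran from -3.295 to -1.583 for *Apoe* and from -3.875 to -2.574 for *Axl*. These ranges are wider than the SEs show. *Fabp5*, a fatty acid carrier, measured 49.0, 5.17 and 5.11 CPM against 215, 156 and 26.8 CPM. The copper oxidase gene *Cp* measured 20.5, 3.36 and 9.01 CPM against 124, 93.8 and 157 CPM, and *Csf1*, a ligand of *Csf1r*, measured 47.9, 24.6 and 16.6 CPM against 217, 203 and 84.2 CPM.

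Among the identity genes *Selplg*, a selectin ligand, measured 1794, 2441 and 2438 CPM against 769, 1000 and 1294 CPM (1.09 ± 0.19, adjusted p = 5.6e-07 by edgeR), and *Slc2a5*, a fructose transporter, measured 339, 324 and 329 CPM against 154, 15.6 and 72.7 CPM (1.70 ± 0.24, adjusted p = 3.9e-10 by edgeR). The groups did not overlap in either gene. The 8 activated cells of niacin replicate 1 held 63989 UMIs in all. Low values of that group, such as 15.6 CPM of *Slc2a5*, rest on very few molecules. The beta-1 adrenergic receptor gene *Adrb1* measured 178, 148 and 141 CPM against 55.4, 31.3 and 26.8 CPM. *Trem2* did not pass, at 1147, 2010 and 1954 CPM against 1021, 2625 and 1822 CPM (-0.07 ± 0.18, adjusted p = 0.91 by edgeR).

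Immediate early genes respond within minutes to stimulation and also to tissue dissociation, as do heat shock genes. In a list of both, 15 of 27 genes tested were higher in homeostatic than in activated cells and 1 was lower (median 0.77). The count higher was 9 without the vehicle library, 5 of 25 without shared barcodes and 1 of 26 without the library block. *Egr1* measured 3938, 2817 and 2699 CPM against 1230, 891 and 1772 CPM, *Jun* 2741, 4770 and 4216 CPM against 838, 1953 and 2063 CPM, and *Fos* 2097, 2874 and 2429 CPM against 618, 1313 and 1524 CPM. Of 20 cytokine and chemokine genes tested 8 were lower and 2 higher, and without shared barcodes 3 of 17 were lower. The chemokine genes *Ccl4* and *Ccl3* were lower, with *Ccl4* at 360, 380 and 419 CPM against 991, 781 and 1703 CPM and *Ccl3* at 411, 487 and 495 CPM against 1015, 735 and 1791 CPM. Lysosome genes were lower in 15 of 40 and higher in 1 (*Cst3*), oxidative phosphorylation genes lower in 19 of 47, and glycolysis genes lower in 9 of 17, with none higher in the last 2 lists. Without shared barcodes the lysosome count lower was 2 of 40 and the glycolysis count 1 of 17, and without the library block they were 0 of 40 and 3 of 16. The oxidative phosphorylation count was 0 without the library block, without niacin replicate 2 and without shared barcodes, 1 with DESeq2 and 1 without the vehicle library. The genes with the largest positive difference, *Ngp*, *Camp*, *S100a8*, *S100a9* and the globins, belong to neutrophils and erythroid cells. Without shared barcodes *Camp* was 0.07 lower on the log2 scale and no longer passed.

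**Figure D3:**
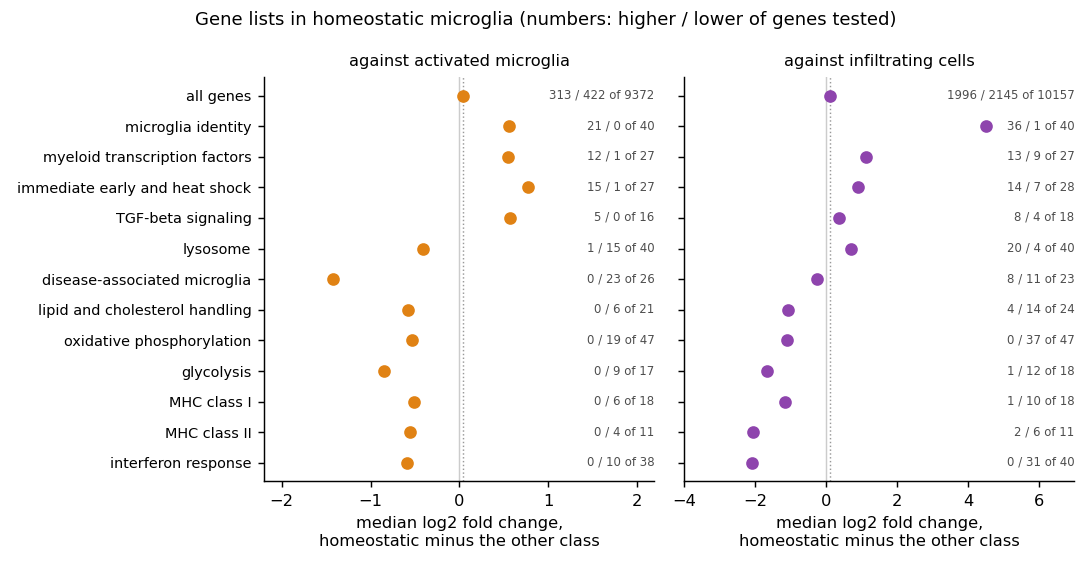
Median log2 fold change of gene lists, homeostatic microglia minus activated microglia (left) and minus infiltrating monocytes and macrophages (right). The dotted line is the median over all genes tested, and the numbers give genes higher and lower of those tested at an adjusted p under 0.05 (edgeR). Of the lists drawn, identity genes have the largest positive median against infiltrating cells (4.50), and disease-associated genes the most negative median against activated cells (-1.42).

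The same class of cells was then compared between the 2 niacin libraries and the vehicle library. With 1 vehicle pool, an effect of niacin cannot be told apart from other differences between that pool and the niacin pools. A gene was counted past the fold where both niacin libraries differed from the vehicle library by at least 1.5 times in the same direction, with exact Poisson 95% intervals that do not overlap, among genes with a mean of at least 20 CPM. Of 6704 genes, 288 (4.3%) were higher and 629 (9.38%) lower in niacin. Between the 2 niacin libraries the same rule counted 52 of 6498 genes (0.8%) higher and 25 (0.385%) lower in replicate 2. Each niacin library alone against vehicle gave 6.7% higher and 11.7% lower for replicate 1, and 6.19% higher and 14.1% lower for replicate 2. The median log2 ratio of niacin over vehicle over all genes was -0.07. With TMM-scaled CPM it was -0.01 and the counts were 384 higher and 493 lower.

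Of the gene lists, interferon response held the most genes past the fold. These genes are switched on by interferons through transcription factors that bind an interferon-stimulated response element (ISRE) or a gamma-activated site (GAS) in their promoters, and they include antiviral effectors, guanylate-binding proteins and antigen-presentation genes. Promoter windows from RefSeq (build GRCm38.p6, 250 bases before to 50 after the start) were matched for 29 of the 40 listed genes, with 33 windows. The ISRE letters, GAAA, any 2 bases and GAAA, searched on both strands, stood in 20 of the 33 windows (60.6%, 19 genes), against 2.98% of 32851 windows of all genes. The GAS letters TTCNNNGAA, which can overlap the ISRE, stood in 18.2% against 7.02% of all windows. In the windows of the identity genes the ISRE letters stood in 1 of 37 (2.70%). A match is a description of the letters and not a measured binding site.

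The stretches around the ISRE matches of 5 genes whose values follow are shown to let the shared element be seen. Each is written 5′ to 3′ on the strand of the gene, with the matched letters in capitals (GAAA, 2 bases, GAAA or, read from the other strand, TTTC, 2 bases, TTTC). *Ifit3* lies at chr19:34583338-34583451 (plus strand), *Isg15* at chr4:156200840-156200931 (minus), *Gbp2* at chr3:142620569-142620648 (plus), *Rsad2* at chr12:26456528-26456607 (minus) and *B2m* at chr2:122147513-122147592 (plus), all GRCm38.p6. The matches begin 156 and 122 bases before the start of *Ifit3*, 78 to 66 before that of *Isg15*, 59 before that of *Gbp2*, 120 before that of *Rsad2* and 139 before that of *B2m*.
Ifit3: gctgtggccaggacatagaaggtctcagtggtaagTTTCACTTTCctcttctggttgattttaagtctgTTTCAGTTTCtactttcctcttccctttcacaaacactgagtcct
Isg15: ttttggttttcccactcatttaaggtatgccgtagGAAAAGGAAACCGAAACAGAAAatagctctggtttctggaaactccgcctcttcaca
Gbp2: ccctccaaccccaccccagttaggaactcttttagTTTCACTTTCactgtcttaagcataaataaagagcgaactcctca
Rsad2: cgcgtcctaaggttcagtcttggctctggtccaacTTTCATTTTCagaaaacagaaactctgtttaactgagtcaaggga
B2m: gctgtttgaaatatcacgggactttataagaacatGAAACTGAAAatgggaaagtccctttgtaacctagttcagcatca
*Ifit3*, *Gbp2* and *Rsad2* carry the element in the TTTC orientation, *Isg15* and *B2m* in the GAAA orientation, and *Isg15* holds 3 overlapping matches.

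Of 34 interferon response genes in range, 32 were past the fold lower in the niacin libraries and 0 higher, with a median log2 ratio of -2.22 against -0.07 over all genes. The exceptions were *Xaf1* and *Ifi35*, and 6 listed genes were under 20 CPM. Over the members with at least 4 microglia genes 25 of 29 in range were lower (median -1.42), and without shared barcodes 20 of 28 (median -1.33). The summed level of all 40 genes was 4838 CPM in the vehicle library against 1192 and 1315 CPM in niacin replicates 1 and 2, and 3383, 1177 and 1231 CPM over the members with at least 4 microglia genes.

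*Irf7*, which amplifies the type I interferon response, measured 102 CPM in the vehicle library, 6.21 CPM in niacin replicate 1 and 7.55 CPM in niacin replicate 2, and 61.2, 6.02 and 6.09 CPM without the 44 members with 3 microglia genes. *Gbp2*, a guanylate-binding protein gene, measured 204, 15.3 and 11.2 CPM, and 116.5, 14.7 and 10.7 CPM without those cells. The 2 niacin values lay close together in both genes, and the vehicle value lay above them with and without the 44 cells. Without shared barcodes *Irf7* measured 30.3, 6.46 and 7.06 CPM, under 20 CPM in mean and so no longer counted, and *Gbp2* measured 85.9, 14.4 and 10.3 CPM, still past the fold. *Isg15*, a ubiquitin-like modifier, measured 127, 21.5 and 19.7 CPM, and 40.4, 21.7 and 15.5 CPM without them. *Rsad2* measured 46.3, 4.92 and 5.84 CPM and *Ifit3* measured 42.6, 10.4 and 16.8 CPM, both antiviral effectors. Without the 44 cells *Ifit3* was still past the fold, at 29.1, 10.5 and 13.95 CPM, and *Rsad2* was under 20 CPM in mean, at 17.8, 4.97 and 4.57 CPM. Without shared barcodes neither was counted past the fold, with 27.4, 14.4 and 17.1 CPM for *Ifit3* and 17.3, 6.46 and 5.59 CPM for *Rsad2*, nor was *Ifit3* in cells thinned to 2000 UMIs.

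The number of interferon genes per cell was then compared at equal depth. At 2000 UMIs per cell the median member had 3 of the 40 interferon genes in the vehicle library, against 1.5 and 2 in niacin replicates 1 and 2. At least 3 genes were detected in 59.1% of members of the vehicle library (95% confidence interval 52.7% to 65.2%), 25.3% in niacin replicate 1 (22% to 28.8%) and 28.1% in niacin replicate 2 (24.6% to 31.7%). Members with all 7 microglia genes gave 55.8%, 26.2% and 27.1%, members with at least 4 of them 56.4%, 25% and 27.04%, and members whose barcode was in 1 library only 55.5%, 24.6% and 27.7%. No interferon gene was detected in 7.09%, 21.3% and 16.7% of members. Other cells differed in the same direction. T cells of the same libraries had at least 3 of these genes in 89.3%, 63.3% and 70.9% of cells, and infiltrating cells in 97.3%, 75.5% and 83.3%. What free RNA adds to these shares was not tested.

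**Figure D4:**
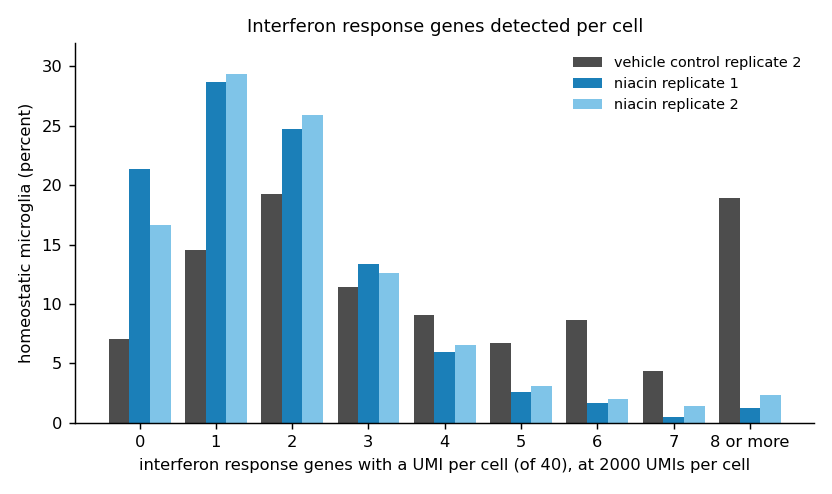
Share of homeostatic microglia (percent) by the number of the 40 interferon response genes with a UMI, with each cell thinned to 2000 UMIs, in the 3 libraries. The vehicle library holds fewer cells with 0 genes (7.09% against 21.3% and 16.7%) and more cells with 3 or more (59.1% against 25.3% and 28.1%).

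Antigen presentation genes followed. Of 18 genes of MHC class I presentation, 11 were past the fold lower and 0 higher (median log2 ratio -0.76), 9 without the 44 members with 3 microglia genes and 7 without shared barcodes. *B2m*, the light chain shared by class I molecules, measured 3912 CPM in the vehicle library, 1668 CPM in niacin replicate 1 and 1841 CPM in niacin replicate 2. The heavy chain genes *H2-K1* and *H2-D1* measured 1997, 781 and 938 CPM, and 1832, 984 and 1173 CPM. Without shared barcodes *H2-K1* was still past the fold (1763, 890 and 962 CPM) and *H2-D1* was not (1545, 1038 and 1177 CPM), nor was *H2-D1* in cells thinned to 2000 UMIs (1614, 995 and 1186 CPM). Without the 44 cells *B2m* measured 3759, 1669 and 1853 CPM. *Tap1*, which carries peptides into the endoplasmic reticulum, measured 170, 52.3 and 57.2 CPM.

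Of 10 genes of MHC class II presentation in range, 5 were past the fold lower (*Cd74*, *H2-Aa*, *H2-Ab1*, *H2-Eb1* and *Ciita*) and 0 higher. The median was -1.52, and -1.47 without the 44 members with 3 microglia genes, where 5 of 10 were also lower. Without shared barcodes it was -0.99 with 5 of 10 lower, and with the genes of the rule read after thinning -0.30 with 4 of 9 lower. *Cd74*, the invariant chain, measured 2366, 220 and 414 CPM in the vehicle library, niacin replicate 1 and niacin replicate 2, and 1968, 180 and 321 CPM without those cells. *H2-Aa* measured 894, 72.2 and 157 CPM, and 669, 52.1 and 102 CPM without them. At 2000 UMIs per cell *Cd74* was present in 53.1% of the vehicle members, 11.7% of the niacin replicate 1 members and 15% of the niacin replicate 2 members, against 10.7%, 2.53% and 6.80% of T cells, which make little of it. *Ciita*, the master regulator of class II genes, measured 63.0, 1.29 and 6.09 CPM, and 39.8, 1.05 and 2.54 CPM without the 44 cells.

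**Figure D5:**
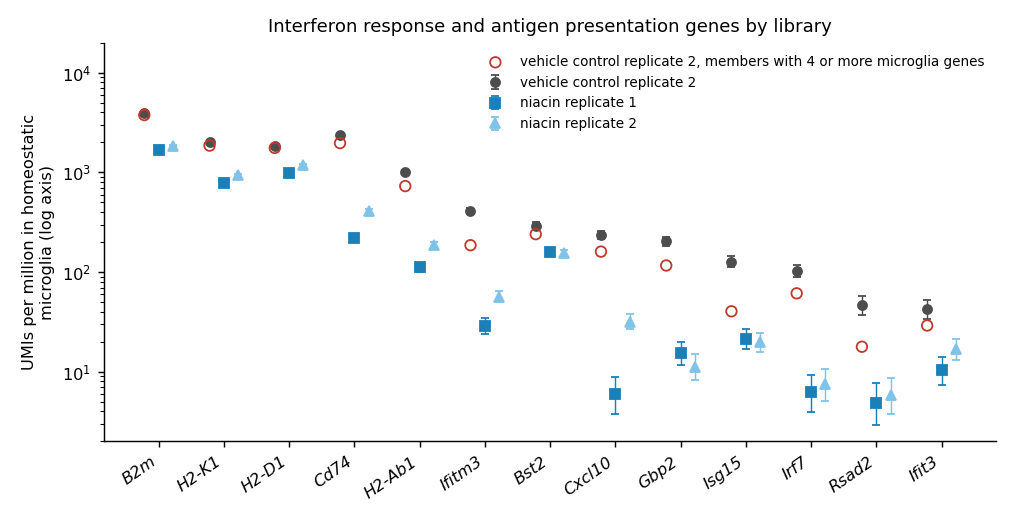
Levels of 13 interferon response and antigen presentation genes in homeostatic microglia (CPM, log axis) by library, with exact Poisson 95% intervals, which cover counting error only. Open circles are the vehicle library over the members with at least 4 microglia genes. The vehicle values lie above both niacin values in each gene, from 3912 against 1668 and 1841 CPM for *B2m* to 42.6 against 10.4 and 16.8 CPM for *Ifit3*, and the open circles lie between the filled vehicle points and the niacin points.

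The 12 genes with the largest fall included macrophage genes that the 44 members with 3 microglia genes carried. *Arg1*, which breaks down arginine, measured 51.2 CPM in the vehicle library and 0 in both niacin libraries, at least 136-fold higher in vehicle with a floor of 3 counts over the niacin group. *Cxcl9*, a chemokine induced by interferon gamma that draws T cells, had 464 UMIs in the vehicle library and 2 in the niacin libraries, a ratio of 996 (counting interval 274 to 8251). Without those cells *Arg1* measured 5.945 CPM in the vehicle library and was not counted past the fold, and *Cxcl9* measured 47.0 CPM and was still past it. *Fn1*, fibronectin, went from 67.3 to 9.51 CPM in the vehicle library when those cells were left out, and was no longer counted past the fold. *Cxcl10*, whose product binds the same receptor as that of *Cxcl9*, was also past the fold without them, at 160.5, 6.02 and 1.015 CPM. *Il1b*, an inflammatory cytokine, measured 121, 5.17 and 18.3 CPM, and 52.9, 5.24 and 15.5 CPM without them. The chemokine genes *Ccl3*, *Ccl4* and *Ccl12* were not past the fold, at 411, 487 and 495 CPM, 360, 380 and 419 CPM, and 689, 574 and 592 CPM.

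Of 40 microglia identity genes 7 were past the fold higher (*Fcrls*, *Trem2*, *C1qb*, *Ecscr*, *Ltc4s*, *Hpgd* and *Bank1*) and 0 lower, against 4.3% higher and 9.38% lower of all genes, with a median log2 ratio of 0.29. The count higher was 4 without the 44 members with 3 microglia genes and 5 without shared barcodes. *Fcrls* and *Hpgd* were not past the fold in either. *Trem2*, the lipid-sensing receptor of microglia, measured 1147, 2010 and 1954 CPM in the vehicle library, niacin replicate 1 and niacin replicate 2, and 1248, 2030 and 2025 CPM without those cells. *C1qb* measured 4263, 7436 and 7243 CPM, and 4580, 7504 and 7506 CPM without them. Both niacin values lay above the vehicle value in both genes with and without the 44 cells. *Cst3*, cystatin C, a protease inhibitor among the most abundant transcripts of microglia, measured 21650, 37420 and 39630 CPM. Without the 44 cells it measured 23680, 37810 and 41110 CPM, still past the fold. *Csf1r* did not differ past the fold, at 2981, 3118 and 2888 CPM, nor did *Tgfbr1*, at 1083, 1071 and 1053 CPM. TGF-beta pathway genes were past the fold in 0 of 16 in either direction. *Tmem37*, a calcium channel subunit gene, measured 56.6, 158 and 157 CPM. *Jun*, *Jund* and *Btg2* were the genes of the immediate early and heat shock list past the fold higher, and without the 44 cells 1 of 25 in that list was past the fold higher and 1 lower. The largest rises, *Camp*, *Ngp*, *S100a8*, *S100a9*, *Hbb-bt*, *Enpp2*, *Ttr* and the other globins, were neutrophil, choroid plexus and erythroid transcripts, and *S100a8* in niacin replicate 2 went from 3263 to 735 CPM without the 44 cells.

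Members also differed among themselves within each library. The Fano factor, the variance over the mean of a gene across cells thinned to 2000 UMIs, was near 1 for most genes, as counting alone gives, with medians of 1.10, 1.10 and 1.09 over 3523 genes. It was at least 1.5 in all 3 libraries for 181 genes. Of the 15 genes with the highest value, 3 were globin genes. The others were the lipid carrier *Apoe*, the nuclear RNA *Malat1*, *Cst3*, the class II genes *Cd74*, *H2-Ab1*, *H2-Aa* and *H2-Eb1*, the chemokines *Ccl12*, *Ccl4* and *Ccl3*, the actin-binding gene *Tmsb4x* and the immediate early gene *Fosb*. *Apoe* had Fano factors of 34.8, 41.4 and 101 and was present in 33.9%, 29.9% and 31.4% of thinned cells. Over the members with at least 4 microglia genes its Fano factors were 26.6, 36.5 and 67.2 at 31.6%, 29.6% and 30.7% of cells. *Ccl4* had 6.39, 25 and 22.5 at 20.1%, 20.6% and 20.3% of cells, and 6.33, 25.4 and 11.7 with at least 4 microglia genes. The shares of cells with *Apoe* spanned 29.9% to 33.9% over the libraries, and those with *Ccl4* spanned 20.1% to 20.6%. *Malat1* and *Cst3* were present in nearly every cell, with Fano factors of 36.5, 47.2 and 34.5 for *Malat1* and 17.2, 21.4 and 18.9 for *Cst3*. Their means were high, at 89.5, 136 and 117 UMIs per thinned cell for *Malat1* and 41.4, 72.3 and 79.9 for *Cst3*, against 2.41, 2.26 and 3.90 for *Apoe*. The Fano factor can rise with the mean, so these values do not rank how strongly the genes vary. Of the 15 genes, 11 were also in the list made from cells of at least 4000 UMIs thinned to 4000, and 14 in the list made from members with at least 4 microglia genes, which held *Adamts1* in place of one of them.

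*Prkcd*, the gene of protein kinase C delta, a kinase of phagocytosis and oxidative burst signaling in myeloid cells, measured 411 CPM in the vehicle library (95% Poisson interval 382 to 441), 243 CPM in niacin replicate 1 and 225 CPM in niacin replicate 2. It was past the fold lower in the niacin libraries, and also over the members with at least 4 microglia genes, at 388, 245 and 230.4 CPM. Infiltrating cells had more, at 726, 414 and 490 CPM (log2 fold change -1.33 ± 0.20, n = 3 libraries, adjusted p = 0.0033 by edgeR), and activated cells measured 377, 313 and 165 CPM (0.06 ± 0.21, adjusted p = 0.93 by edgeR). Of the other protein kinase C genes, *Prkca* set homeostatic microglia apart from infiltrating cells, at 78.6, 100 and 92.8 CPM against 4.08, 0 and 0 CPM (4.99 ± 0.58, adjusted p = 0.0016 by edgeR). *Prkcb* did not pass in either class comparison, at 106, 66.0 and 70.9 CPM against 55.7, 104 and 106 CPM in infiltrating cells.

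*Cybb*, the catalytic subunit of the phagocyte NADPH oxidase, measured 157, 14.8 and 50.2 CPM in homeostatic microglia and 1546, 1503 and 1841 CPM in infiltrating cells (-5.47 ± 0.73, adjusted p = 0.0024 by edgeR). Over the members with at least 4 microglia genes its levels were 74.9, 11.3 and 24.35 CPM, still past the fold lower in niacin. Its membrane partner *Cyba* measured 699, 943 and 946 CPM against 1391, 1460 and 1550 CPM. The regulatory subunit gene *Ncf1* measured 409, 356 and 338 CPM in homeostatic microglia, not past the fold. *Nos2*, inducible nitric oxide synthase, was near the floor at 1.62, 0 and 0.49 CPM. *Hcar2*, which encodes the receptor that niacin activates, was low in homeostatic microglia at 23.2, 23 and 15.6 CPM. In activated cells *Hcar2* measured 102, 46.9 and 84.2 CPM (-2.15 ± 0.33, adjusted p = 1.9e-08 by edgeR). Few activated cells carried it. Among thinned cells it was detected in 3 of 37, 0 of 8 and 3 of 26 activated cells, against 2.76%, 4.12% and 3.9% of members. The intervals of these shares overlapped between the classes in each library. Its difference without shared barcodes is not given here. *Nampt*, which recycles nicotinamide to NAD, measured 129, 25.4 and 37.5 CPM in homeostatic microglia, past the fold lower in niacin, and 81.45, 25.4 and 37.55 CPM over the members with at least 4 microglia genes.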

How the data were processed

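The authors sequenced Chromium 3′ v3.1 libraries and processed them with Cell Ranger 3.1, which aligns with STAR, on mm10. The files the authors deposited give raw UMI counts of 31053 genes for the barcodes called as cells, with 8301228, 9373321 and 10359526 UMIs per library. No values of the authors' own comparisons were used. Members were found by the rule given in the text. For each library, the counts of a class were added up. CPM are counts per 1000000 of these sums, not scaled by gene length, since 3′ UMIs count molecules. Class comparisons used edgeR 4.0.16 in R 4.3.3 (quasi-likelihood, TMM, filterByExpr, library as a block, Benjamini-Hochberg over all genes tested), with DESeq2 1.42.0 as an alternative. Pools are 1 sample each, so the class tests rest on 3 pools. The fits share dispersion over genes, so SEs and p-values can understate how far a single gene varies between pools. The edgeR fits were tested on simulated data with known changes. They recovered 100% of 4-fold changes in both comparisons. Of 2-fold changes they recovered 70% against activated and 35% against infiltrating cells, so a gene that did not pass can still differ. Cells were thinned once with a fixed seed. Doublets were not called. Removal of cells with markers of other types, which took over 50% of members, was an alternative, as was a narrower version. The narrower version left out *Csf3r*, *Ttr* and *Enpp2* and asked for more neutrophil markers per cell. Which marker removed most members was not tested. Intervals are exact at 95%, and 0 counts allow up to 3. Genes are named from lists and by rank: 12 per direction and comparison, 15 for variation, plus *Prkcd*, *Cybb* and *Nos2*. Genes outside the lists and ranks that are named were chosen after their values were seen. The members and gene lists were chosen with earlier results of these data known, so patterns already known from them are not independent evidence. There were 66 alternatives set at the start and 6 added after seeing the data (the narrower doublet removal, and variation over members with at least 4 microglia genes). Some genes are not reported here.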

Additional observations from a re-analysis of the deposited data

How the results depend on the processing

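The counts of homeostatic against activated microglia (313 genes higher, 422 lower) depended most on the processing. They were 77 and 162 with DESeq2, 90 and 107 from cells thinned to 2000 UMIs, 129 and 60 with the genes of the rule read after thinning, 46 and 55 with possible doublets removed, 12 and 36 without shared barcodes, and 10 and 36 with no replicate block, where the block is the library that both classes of a pair share. Leaving out each library in turn gave 72 to 369 higher and 105 to 575 lower, the lowest pair without the vehicle library. Against infiltrating cells (1996 and 2145) the counts were 1117 and 1157 from thinned cells and 1370 lower without shared barcodes, and 818 to 2194 higher and 973 to 2220 lower with a library left out, the lowest without niacin replicate 2. The block moved neither total of that comparison by over 1.5 times. It did move the count of interferon response genes lower by more than that, as given above. For niacin against vehicle (288 and 629) the counts were 139 and 360 from thinned cells, 388 lower with possible doublets removed, 157 and 315 at a mean of at least 50 CPM, 52 and 193 at a fold of 2, and 1145 and 1319 by edgeR, which assumes that the lone vehicle library varies like the niacin libraries. A niacin library left out gave 414 to 449 higher and 781 to 942 lower, and the vehicle library could not be left out. No paired analysis of niacin was possible because no niacin library is known to be matched to the vehicle library.

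The homeostatic share moved to 91.7% in the vehicle library and 97.7% in niacin replicate 2 without shared barcodes, to 97.0% and 98.6% with the genes of the rule read after thinning, to 97.5% in niacin replicate 2 with possible doublets removed, and to 63.2%, 88.3% and 83.2% (vehicle, niacin 1, niacin 2) where members had none of the activation genes. *Prkcd* in the vehicle library was 447 CPM from thinned cells and 382 CPM with the rule read after thinning, and in niacin replicate 1 was 227 CPM with possible doublets removed and 262 CPM without shared barcodes. Direction reversed for 6 named genes, all neutrophil or choroid plexus markers. *Camp* against activated cells was -0.19 with the rule read after thinning and -0.067 without shared barcodes. Against infiltrating cells *Ngp* was 0.44 and *S100a9* 0.25 with possible doublets removed, and with the narrower removal *Ngp* was 1.43, *S100a8* 0.33, *S100a9* 0.74 and *Lcn2* 0.24 (log2). The niacin ratio of *Enpp2* was 0.654 with possible doublets removed. Causes were not tested. Of 170 alternative values of counts, shares and *Prkcd*, 127 stayed within 1.5 times the count or within the counting interval. Of the values of single named genes, 1190 kept direction and call, 129 kept direction only and 9 reversed. In niacin replicate 1 the comparison with activated cells rests on 8 such cells, and at the depth of these sums genes under 20 CPM in mean were not read for niacin.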

Other observations

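Genes of prostaglandin and leukotriene metabolism also varied between the classes. Of 14 tested, 5 were higher and 1 lower in homeostatic than in activated microglia (median log2 fold change 0.54), against 3.34% higher and 4.5% lower of all genes. *Hpgd*, which breaks down prostaglandins, measured 264, 416 and 420 CPM against 78.9, 93.8 and 195 CPM (1.46 ± 0.23, n = 3 libraries, adjusted p = 3.5e-08 by edgeR), and *Cysltr1*, a leukotriene receptor, measured 135, 151 and 128 CPM against 40.5, 15.6 and 57.4 CPM. *Ltc4s*, leukotriene C4 synthase, measured 347, 570 and 594 CPM against 190, 156 and 318 CPM. *Ptger4*, a prostaglandin E2 receptor, was the gene that was lower, at 22.6, 3.1 and 2.92 CPM against 25.6, 62.5 and 45.9 CPM.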
